A study of Homo sapiens with 12 samples.

Results

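The 10 genes described here encode transcription factors of the AP-1 and C/EBP families and close relatives, namely JUN, JUNB, FOS, FOSL1, FOSL2, ATF3, MAFF, CEBPA, CEBPB and CEBPD. They were chosen by name and found through 13 probes that the array annotation assigns to them, of 25992 gene names on the array. All 10 were among the 15717 genes tested, although FOS passed the filter on dim probes through the Empa arrays labelled RPTEC alone. Human proximal tubular cells (HPTC) were starved of serum and supplements for 24 h. They were then kept for 24 h without ligand (control), with the inflammatory cytokine IL-1β (10 ng/mL) or with the SGLT2 inhibitor empagliflozin (Empa, 500 nM), and RNA was measured on 12 one-color microarrays. The sample titles name HK2 and RPTEC, in the study's methods HK-2 cells, a line made with papillomavirus genes, and RPTEC/TERT1 cells, a line made with telomerase, with 2 arrays per line and treatment. The 3 treatments of a titled line and replicate number shared a slide, 4 slides in all, and each treated array was set against the control array of its own slide. No array carries cells that received both ligands, and each line is a single immortalized culture.

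AP-1 factors are dimers of JUN and FOS family proteins that bind a short palindromic element and are switched on by MAP kinases after cytokines, growth factors and stress. FOS and JUNB are immediate early genes whose transcripts rise and fall quickly, while FOSL1 and FOSL2 are induced later, and ATF3 and the small MAF protein MAFF are stress-inducible relatives. C/EBP factors bind related elements, and C/EBPβ and C/EBPδ are known for driving acute-phase and cytokine genes in inflammation, whereas C/EBPα is tied to differentiation.

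The array signals go against the line labels. Named by line and replicate number, the controls HK-2 1 and RPTEC 2 had a correlation of 0.984 and the controls HK-2 2 and RPTEC 1 of 0.973, against 0.880 and 0.875 within a line. These were computed over 15324 probes measured on every array, and probes are no independent replicates. Markers split the slides in the same way. The epithelial cadherin gene CDH1, the aminopeptidase gene ANPEP and the cotransporter gene SLC12A1 were well above background on 3 of 3 arrays of the slides HK-2 1 and RPTEC 2 and on 0 arrays of the slides HK-2 2 and RPTEC 1. The matrix genes DCN and LUM were well above background on 3 of 3 arrays of HK-2 2 and RPTEC 1, with DCN on 1 array and LUM on 0 arrays of each other slide. HK-2 is also given as the source of all 12 samples. Slides are therefore named by their titles, and the main comparison used 1 effect per treatment over the 4 slides, a model that needs no line label. The filter on dim probes did count arrays by titled line and treatment, so CDH1, ANPEP, SLC12A1 and LUM, measured on 1 slide of each title, were not tested.

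As a check of the cell type, 7 of 14 proximal tubule markers were well above background on all 12 arrays, among them the endocytic receptor gene LRP2 and the transcription factor gene PAX8, while HNF4A, SLC5A1 and SLC22A6 were on none. Of 6 epithelial markers, 3 were seen on all 12 arrays (EPCAM, KRT8 and KRT18). Of 6 distal tubule markers 0, of 5 endothelial markers 1 (CDH5), of 6 leukocyte markers 3 (PTPRC, CD68 and CD79A) and of 6 fibroblast markers 0 were seen on all 12 arrays. The listed markers KRT19 (epithelium), UMOD (distal tubule) and LYZ (leukocytes) had no value and could not be seen. Some arrays nevertheless carried markers of other cells, as the distal tubule marker SLC12A1 was well above background on 6 arrays (up to 13118 units, scaled as below), and the fibroblast markers DCN on 8 (up to 3061 units), LUM on 6 (up to 1818 units) and COL1A1 on 11 (up to 59.6 units). The part of such genes in the results was not tested. In bulk RNA, fewer cells of a type and less RNA per cell cannot be told apart.

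With IL-1β, CEBPB, FOSL1 and FOSL2 were upregulated, FOS passed as lower from signals near background, and MAFF, which was higher on 4 of 4 slides, lay just outside the threshold. At an adjusted p of 0.05 (limma with Benjamini-Hochberg adjustment over all genes tested) IL-1β raised 3 of the 10 members. Among all genes 4.73% passed as higher and 7.74% as lower, 12.5% in either direction. FOS also had an adjusted p under 0.05, as lower, but its probe was kept only through Empa arrays, so it is not counted. It was well above background on 1 of 4 control and 0 of 4 IL-1β arrays, and its call was lost with normexp (adjusted p = 0.199 from limma) and in the authors' table (0.213). The median log2 fold change with IL-1β was 0.54 over the members and -0.10 over all genes, and with Empa it was -0.31 and -0.02. With Empa 0 of the 10 members passed in limma, where 0.00636% of all genes did, and 1 member, FOSL2, had an unadjusted p under 0.05, as did 12.1% of all genes. The only gene past the threshold with Empa was DHRS2, named after its value was seen. When the treatments were compared with each other, CEBPB, FOSL1, FOSL2 and MAFF were higher with IL-1β. Of the 15717 genes tested, 827 passed as higher and 1442 as lower in this comparison, 14.4% in either direction. FOS also had a low adjusted p there (0.00110 from limma, lower with IL-1β), but its probe was kept only through Empa arrays and was well above background on 0 of 4 IL-1β arrays, so it is not counted. These comparisons share arrays. Without the slide as a block, with 1 effect per treatment (a fit chosen after seeing the data), 0 members passed for IL-1β in limma, and FOSL2 and MAFF still passed for IL-1β against Empa (adjusted p = 0.0478 and 0.0174 from limma). With neither the block nor pooling over titled lines (6 groups), 0 passed in limma in both comparisons. The study describes the replicates as biological duplicates from independent experiments. With the slide as a block, p-values measure the spread of the treatment differences between the slides, with the level of each slide removed.

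**Figure D1:**
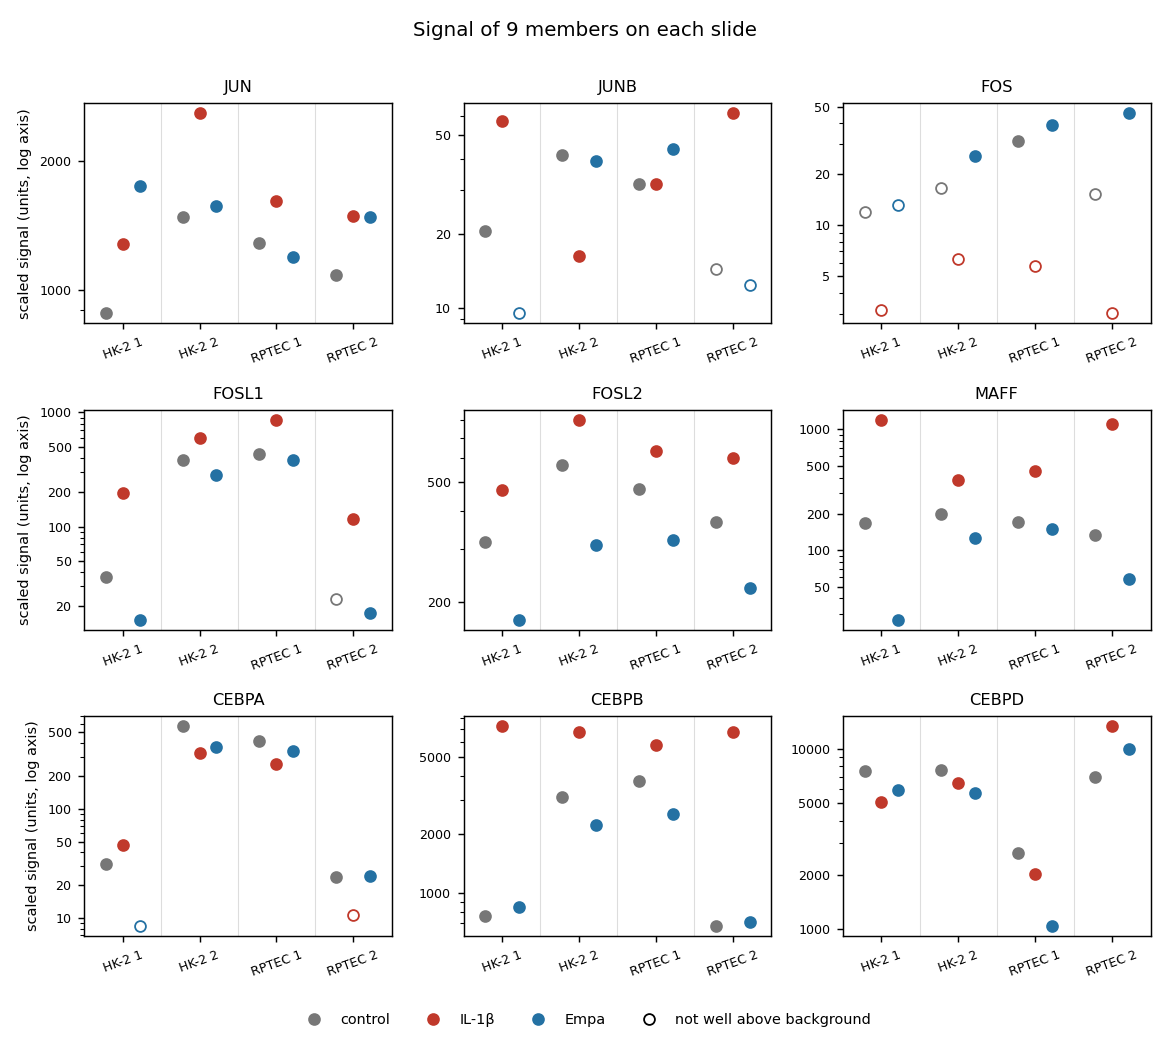
Signal of 9 members on the 12 arrays, scaled to a common 75th percentile (log axis, 1 point per array, grouped by slide; open points were not well above background). FOSL1, FOSL2 and MAFF have the IL-1β point on top and the Empa point at the bottom on 4 of 4 slides, and the IL-1β points of CEBPB lie between 5769 and 7252 units on all slides.

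CEBPB encodes C/EBPβ and was read by a probe at chr20:48808989-48809048 (hg19). On the slides HK-2 1, HK-2 2, RPTEC 1 and RPTEC 2, in this order, the scaled signal of the control arrays was 760.3, 3102, 3783 and 676 units. With IL-1β it was 7252, 6745, 5769 and 6743 units, and with Empa 842, 2245, 2534 and 707.2 units. Every IL-1β array was above every control and Empa array. The share of all genes with groups set apart in this way was not counted, here or for the members below. Such a separation is therefore not read as particular to a member. The control arrays differed 5.596-fold between the slides and the IL-1β arrays 1.26-fold, so the slides HK-2 1 and RPTEC 2, with low controls, had the larger increases (9.54-fold and 9.97-fold, against 2.17-fold and 1.53-fold). IL-1β raised CEBPB by 2.08 ± 0.44 (SE) on the log2 scale, on 4 of 4 slides (adjusted p = 0.0171 from limma). The call was lost when the control or the IL-1β array of HK-2 1 or of RPTEC 2 was left out (adjusted p between 0.0538 and 0.0719), without the whole slide HK-2 1 (0.0936) or RPTEC 2 (0.125), with no filter on dim probes (0.0624) and with effects per title line (0.0597), while the log2 fold change was at least 1.66. Between IL-1β and Empa the log2 difference was 2.28 (adjusted p = 0.0110 from limma, or 0.0507 without the Empa array of RPTEC 2, 0.0603 without the slide HK-2 1 and 0.0798 without the slide RPTEC 2). With Empa the log2 fold change was -0.21 (95% confidence interval -1.19 to 0.78, adjusted p = 0.850 from limma), with 2 slides higher and 2 lower.

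FOSL1, which encodes the late AP-1 subunit FRA-1, was read by a probe at chr11:65660098-65660157 (hg19). The control signals on the 4 slides, in the same order, were 36.0, 384, 432 and 23.1 units, the IL-1β signals 197, 594, 867 and 116 units, and the Empa signals 15.3, 285, 384 and 17.5 units. The slides fell into a dim and a bright pair, and within each slide the order was IL-1β, control, Empa. Across slides the groups overlapped, and the control of RPTEC 2 was not well above background. IL-1β raised FOSL1 5.45-fold on HK-2 1, 1.55-fold on HK-2 2, 2.01-fold on RPTEC 1 and at least 5.03-fold on RPTEC 2. The fitted log2 fold change of FOSL1 was 1.60 ± 0.40 (SE, adjusted p = 0.0328 from limma), against 0.99 with normexp and 0.76 in the authors' table, and the call was lost without any 1 of 7 arrays, namely the 4 controls, the IL-1β arrays of HK-2 1 and RPTEC 2 and the Empa array of RPTEC 2 (adjusted p between 0.0515 and 0.119). It was also lost without the slide HK-2 1, RPTEC 1 or RPTEC 2 (adjusted p = 0.0782, 0.0566 and 0.194 from limma), with no filter on dim probes (0.0946) and with effects per title line (0.0851). With Empa the log2 fold change was -0.56 (adjusted p = 0.570 from limma), lower on 4 of 4 slides, against -0.24 and -0.19 in those settings. The difference between IL-1β and Empa was 2.16 on the log2 scale (adjusted p = 0.00980 from limma, or 0.0849 without the slide RPTEC 2), and it was 1.23 with normexp and 0.94 in the authors' table.

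FOSL2 encodes the related subunit FRA-2, with a probe at chr2:28637175-28637234 (hg19). Its control signals were 315, 569.6, 472 and 368 units, its IL-1β signals 467, 804, 633 and 601 units and its Empa signals 174, 309, 320.5 and 222 units. The differences were small and alike on all slides, from 1.34-fold to 1.63-fold higher with IL-1β and from 1.47-fold to 1.84-fold lower with Empa. Across slides the IL-1β and control groups overlapped, while every IL-1β array was above every Empa array. IL-1β raised FOSL2 by 0.55 ± 0.14 (SE) on the log2 scale (adjusted p = 0.0368 from limma). It lay close to the threshold, and only the omission of the Empa array of HK-2 1 or the IL-1β array of RPTEC 1 left the call in place (adjusted p up to 0.133 without another array). The call was also lost without any 1 of the 4 slides (adjusted p between 0.0861 and 0.221 from limma), in the authors' table (0.0542) and with effects per title line (0.105). The log2 fold change of FOSL2 with Empa was -0.75 (SE 0.14, 95% confidence interval -1.08 to -0.43, adjusted p = 0.168 from limma), lower on 4 of 4 slides but past no threshold after adjustment. IL-1β against Empa gave 1.30 on the log2 scale (adjusted p = 0.000886 from limma).

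MAFF encodes a small MAF protein without a transactivation domain and has a probe at chr22:38611984-38612043 (hg19). Its control signals were 169.8, 199, 170.1 and 134 units, a narrow range of 1.48-fold. With IL-1β the signals were 1207, 382, 449 and 1104 units and with Empa 26.8, 127, 151 and 57.4 units. Every IL-1β array was above every control array, and on the slides HK-2 1 and RPTEC 2 the signal moved farthest from control with both ligands, 7.11-fold and 8.23-fold up with IL-1β and 6.34-fold and 2.34-fold down with Empa. On HK-2 2 and RPTEC 1 it was 1.92-fold and 2.64-fold up and 1.57-fold and 1.13-fold down. The log2 fold change was 2.05 with IL-1β (standard error 0.59, adjusted p = 0.0521 from limma) and -1.18 with Empa (standard error 0.59, adjusted p = 0.448 from limma), and neither passed. The Empa value was -0.62 with normexp and -0.45 in the authors' table. The IL-1β change passed without the Empa array of HK-2 1, the IL-1β array of HK-2 2, or the IL-1β or Empa array of RPTEC 1 (adjusted p between 0.0221 and 0.0482 from limma), and with normexp (0.0247), the authors' table (0.0130), a floor of 5 units (0.0460) or the filter on all 12 arrays (0.0350). IL-1β against Empa gave 3.23 on the log2 scale (adjusted p = 0.00912 from limma, or 0.0841 without the slide RPTEC 2), and 1.99 in the authors' table.

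**Figure D2:**
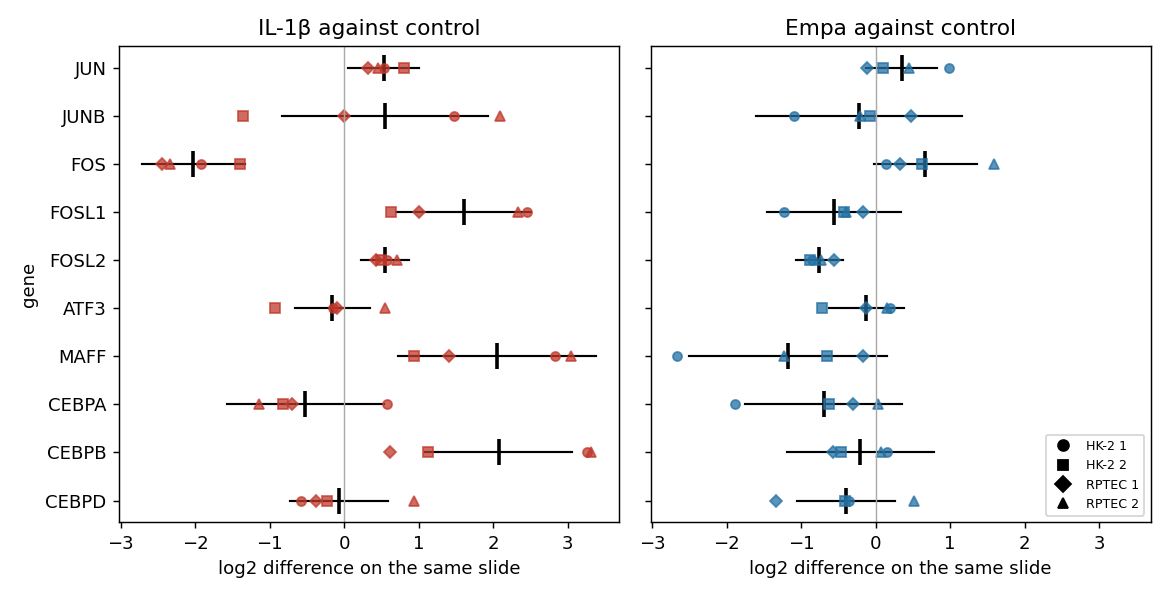
Log2 difference of each member from the control array of the same slide (1 symbol per slide) with the fitted log2 fold change (vertical mark) and its 95% confidence interval (line). The IL-1β symbols of CEBPB, FOSL1, FOSL2, MAFF and JUN are above 0 on 4 of 4 slides, those of FOS are below 0 but come from arrays not well above background, and the ATF3 values are those of 1 of its 4 probes.

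The order IL-1β over control over Empa on 4 of 4 slides was found for FOSL1, FOSL2 and MAFF, that is 3 of the 10 members, and for 213 of the 15717 genes tested (1.36%). For FOSL1 on RPTEC 2 the control was not well above background, so control over Empa was not measured there. Without the slide HK-2 1, HK-2 2 or RPTEC 1, the order held on every slide left for 390, 489 and 320 genes. CEBPB and JUNB had this order on 2 slides, JUN and CEBPA on 1 and FOS, ATF3 and CEBPD on 0. For JUNB these include RPTEC 2, where neither the control nor the Empa array was well above background. The upstream sequences of CEBPB, FOSL2 and MAFF are shown because these members were higher with IL-1β than with Empa on every slide. They are the 250 bases before the most upstream start of each gene (RefSeq, GRCh38.p14, all on the + strand, 5′ to 3′), at chr20:50190333-50190582, chr2:28392608-28392857 and chr22:38201744-38201993. Capitals mark matches on either strand to the AP-1 element TGACTCA, the cAMP response element TGACGTCA, the C/EBP element TTGCGCAA or a loose NF-κB pattern (GGG, any 5 bases, CC), and matches that overlap run together.
CEBPB: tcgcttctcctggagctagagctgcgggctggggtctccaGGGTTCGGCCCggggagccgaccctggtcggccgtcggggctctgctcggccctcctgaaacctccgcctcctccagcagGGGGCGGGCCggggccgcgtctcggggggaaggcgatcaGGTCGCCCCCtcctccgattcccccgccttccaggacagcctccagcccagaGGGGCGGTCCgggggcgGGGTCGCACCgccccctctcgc
FOSL2: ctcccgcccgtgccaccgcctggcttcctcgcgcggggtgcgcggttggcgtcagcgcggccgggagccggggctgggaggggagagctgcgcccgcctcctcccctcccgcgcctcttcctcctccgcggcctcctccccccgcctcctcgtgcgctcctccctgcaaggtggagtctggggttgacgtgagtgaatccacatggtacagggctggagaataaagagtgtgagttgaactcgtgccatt
MAFF: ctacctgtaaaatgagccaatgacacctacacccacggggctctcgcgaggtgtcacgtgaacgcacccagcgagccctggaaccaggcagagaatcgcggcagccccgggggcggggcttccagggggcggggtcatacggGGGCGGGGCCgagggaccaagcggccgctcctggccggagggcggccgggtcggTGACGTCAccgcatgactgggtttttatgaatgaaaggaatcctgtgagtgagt
In all, 8 of the 10 members had an entry, with 11 start sites, and FOSL1 and CEBPD had none. The cAMP response element was found in 1 of these 11 windows, that of MAFF at 54 bases before the start, and in 1.65% of the 35116 windows of the same length. The NF-κB pattern had 6 matches in the CEBPB window, 1 in that of MAFF and 0 in that of FOSL2, and the other windows of CEBPB and MAFF, not shown, had 3 and 4. It was in 7 of the 11 member windows and 54.4% of all windows. TGACTCA was in 0 of the 11 member windows and 4.20% of all windows, and TTGCGCAA in 0 and 0.131%. A match describes the letters and is not a binding site.

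Among the other AP-1 genes, JUN encodes the classical partner of FOS proteins. The JUN signal was 885, 1479, 1293 and 1088 units in the controls, 1285, 2589, 1611 and 1488 with IL-1β and 1750.1, 1575, 1193 and 1479 with Empa. It was above control with IL-1β on 4 of 4 slides, by 1.25-fold to 1.75-fold, but the groups overlapped and the change did not pass (log2 fold change 0.53, 95% confidence interval 0.05 to 1.00, adjusted p = 0.138 from limma). It passed in the fit without the Empa array of HK-2 1 (adjusted p = 0.0438 from limma). With Empa 3 of 4 slides were higher (log2 fold change 0.35, adjusted p = 0.510 from limma).

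JUNB was dim, with signals of 20.4, 41.6, 31.8 and 14.4 units in the controls, 56.9, 16.2, 31.7 and 61.4 with IL-1β and 9.54, 39.5, 44.2 and 12.4 with Empa. It was well above background on 9 of 12 arrays, not on the control of RPTEC 2 or the Empa arrays of HK-2 1 and RPTEC 2. The slides disagreed with IL-1β, with JUNB 2.79-fold higher on HK-2 1 and at least 4.26-fold higher on RPTEC 2, 2.57-fold lower on HK-2 2 and level on RPTEC 1. The log2 fold change was 0.55 with a standard error of 0.61 (adjusted p = 0.604 from limma), and with Empa it was -0.23 (adjusted p = 0.884 from limma), a sign that turned in the authors' table and after normexp. With IL-1β these settings gave 0.13 and 0.25.

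FOS, the prototype immediate early gene, was near background at 24 h. Its probe was well above background on 4 of 12 arrays, the control of RPTEC 1 and the Empa arrays of HK-2 2, RPTEC 1 and RPTEC 2. The signals were 11.9, 16.6, 31.2 and 15.3 units in the controls, 3.16, 6.30, 5.72 and 3.03 units with IL-1β and 13.1, 25.5, 39.0 and 45.8 units with Empa. The IL-1β arrays were below all others, but none of them was well above background. On the slide RPTEC 1, where the control was measured, FOS was at least 4.44-fold lower with IL-1β, and no fold is given for the other slides. Such a bound sets the brighter signal, or the mean of the brighter group, against the lowest signal well above background on each dim array or the probe's own signal, whichever was higher. The adjusted p from limma for IL-1β was 0.00434, with lower signals on 4 of 4 slides, and the size of the change depends on the treatment of dim signals (log2 fold change -2.02, against -0.22 after normexp and -0.23 in the authors' table, where the call was lost). With Empa the signal was above control on 4 of 4 slides, with both arrays measured on RPTEC 1 alone (1.25-fold). It was at least 1.54-fold higher on HK-2 2 and at least 3.00-fold higher on RPTEC 2. The change did not pass (log2 fold change 0.66, or 0.14 with normexp, adjusted p = 0.422 from limma).

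ATF3, a stress-inducible factor of the ATF family, had 4 probes that disagreed. They lie on chromosome 1 of hg19 and start at 212788502 (A_33_P3214105), 212792519 (A_33_P3214096), 212792837 (A_24_P33895) and 212793856 (A_23_P34915). The probe used in the fit, A_33_P3214096, read between 65.5 and 125 units on the 12 arrays with no order of the treatments, and its log2 fold changes were -0.16 with IL-1β and -0.13 with Empa (adjusted p = 0.691 and 0.821 from limma). A_33_P3214105 was as flat, between 59.8 and 98.9 units. The probe A_23_P34915 was not used because its spot was marked as an outlier on the Empa array of HK-2 2. On the other arrays it read 104, 1132, 1122 and 111 units in the controls, 586, 1327, 1123 and 569 units with IL-1β and, for HK-2 1, RPTEC 1 and RPTEC 2, 121, 1477 and 132 units with Empa. At this probe ATF3 was thus 5.63-fold and 5.13-fold higher with IL-1β on the slides HK-2 1 and RPTEC 2, where the controls were low, and 1.17-fold and 1.00-fold of control on HK-2 2 and RPTEC 1. Its log2 fold change was 1.27 with IL-1β (adjusted p = 0.129 from limma, fitted without the missing array) and 0.12 with Empa (adjusted p = 0.936 from limma). The dim probe A_24_P33895, well above background on 7 arrays, gave 1.59 and 0.12 (adjusted p = 0.217 and 0.957 from limma). So no ATF3 probe passed, and the direction with IL-1β differed between probes.

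**Figure D3:**
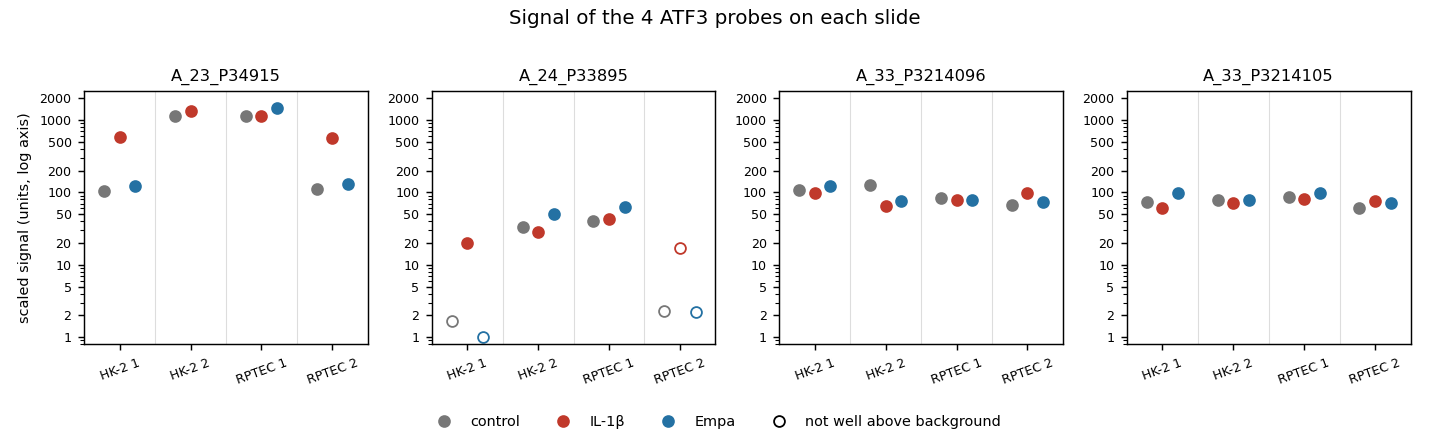
Scaled signal of the 4 ATF3 probes on the 12 arrays (log axis, 1 point per array, grouped by slide; open points were not well above background, 1 outlier is left out, and 1 value below 1 unit is drawn at 1). With A_23_P34915 the controls of HK-2 1 and RPTEC 2 read 104 and 111 units and the IL-1β arrays 586 and 569, while A_33_P3214096 stays between 65.5 and 125 units.

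Of the other C/EBP genes, CEBPA split the slides most. Its signals were 31.5, 575, 417 and 23.8 units in the controls, 47.0, 326, 256 and 10.8 units with IL-1β and 8.54, 371, 336 and 24.2 units with Empa, so HK-2 1 and RPTEC 2 were dim with every treatment. The controls differed 24.2-fold between slides, a range larger than that of 97.6% of genes. The IL-1β array of RPTEC 2 and the Empa array of HK-2 1 were not well above background. With IL-1β CEBPA was 1.76-fold and 1.63-fold lower on HK-2 2 and RPTEC 1, at least 2.20-fold lower on RPTEC 2 and 1.49-fold higher on HK-2 1 (log2 fold change -0.52, adjusted p = 0.512 from limma). With Empa it was lower on 3 of 4 slides (log2 fold change -0.70, adjusted p = 0.547 from limma). With normexp these log2 fold changes were both -0.32, and in the authors' table that with Empa was -0.26.

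CEBPD, which encodes C/EBPδ, was bright on all arrays. The controls read 7522, 7576, 2631 and 6985 units, the IL-1β arrays 5036, 6450.5, 2020.3 and 13376 units and the Empa arrays 5879, 5708, 1043 and 10007 units. RPTEC 2 was the only slide with higher signals under either ligand (1.92-fold with IL-1β and 1.43-fold with Empa), and the other 3 slides were lower. The log2 fold changes were -0.06 with IL-1β (95% confidence interval -0.72 to 0.59) and -0.40 with Empa (-1.05 to 0.26), with adjusted p of 0.913 and 0.581 from limma. The IL-1β value was -0.20 with normexp and -0.25 in the authors' table.

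The difference in effect between the lines as titled was past the threshold for 0 members with IL-1β and 0 with Empa in limma. Over all genes 0 and 0 passed in limma, while 280 and 161 had an unadjusted p under 0.05. Each title holds a slide of each kind that controls and markers set apart, so these contrasts cannot compare the kinds. Between the control arrays of the titled lines 0 of the 15717 genes passed in limma, with 188 at an unadjusted p under 0.05. CEBPA and FOSL1 had log2 differences between the titled lines of -0.44 and -0.24 with standard errors of 2.56 and 2.19, since each title holds a dim and a bright slide.

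By the correlation of the slide-centred log2 values over the 12 arrays, the genes most like each member were GBP2 and SLC43A3 for MAFF (r = 0.996 and 0.994), ABLIM3 and SLC11A2 for FOSL1 (0.995 and 0.994), NMB and PFN1P2 for CEBPB (0.994 each) and ZBTB7B and TNC for FOSL2 (0.981 and 0.980). For JUN they were YOD1 and KPNA4 (0.985 and 0.984), for JUNB MMP23B and GPRIN1 (0.976 and 0.968), for FOS DMRTA1 and RGMB-AS1 (0.977 and 0.970) and for ATF3 SEMA4A and PPIA (0.992 and 0.982). For CEBPA they were COG2 and KMT2B (0.952 and 0.939) and for CEBPD HCN2 and RHBDL1 (0.979 and 0.970). These values describe 12 arrays that share slides and treatments.

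Relatives of the members were taken from lists by family. Of the AP-1 family list 6 of 8 genes were tested and 1 passed with IL-1β, BATF3 (log2 fold change 2.91, adjusted p = 0.0359 from limma), with a list median of 0.38. BATF3 was 2.22 with normexp and 1.87 in the authors' table, and its call was lost with no filter on dim probes (0.111) and with effects per title line (0.0944). Of the CREB and ATF family list 15 were tested, XBP1, a factor of the unfolded protein response, rose (1.11) and CREB3L4 fell (-1.60), and the median was -0.06, a sign that turned with quantile normalization (0.0291), normexp (0.0442), the authors' table (0.0155) and outlier spots kept (0.0142). Of the MAF and NFE2 family list 10 were tested, MAFG (0.91) and BACH1 (0.78), which can pair with small MAF proteins, rose, and the median was 0.28. BACH2, near background with 2 of 4 controls and 0 of 4 IL-1β arrays measured, passed as lower (adjusted p = 0.00815 from limma) but not with normexp (0.161) or in the authors' table (0.229). Its probe did not pass the filter through IL-1β arrays. Of the C/EBP and PAR family list 5 were tested, and the PAR factors DBP (-2.20, or -1.06 with normexp and -1.09 in the authors' table) and HLF (-1.77) fell, with a median of -0.54, against -0.20 with normexp, -0.23 in the authors' table and -0.0742 with the filter on all 12 arrays. Each of these changes had the same sign on 4 of 4 slides and an adjusted p from limma between 0.000581 and 0.0359. With effects per title line XBP1 (0.0955), MAFG (0.0690) and BACH1 (0.0530) did not pass, nor did XBP1 with no filter (0.0873).

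Of 27 MAP kinase pathway genes, all tested, 4 rose with IL-1β and 3 fell, with a median log2 fold change of 0.04. The 4 were IRAK2 (3.54) and MAP3K8 (2.75), which act below the IL-1 receptor and in ERK activation, MAP3K5 (1.89) and MAP2K3 (1.33). Those that fell were MAP2K6 (-2.08), MAPK10 (-1.86, well above background on 4 of 4 control but 1 of 4 IL-1β arrays) and MAP3K14 (-0.96). The probe of MAPK10 did not pass the filter through IL-1β arrays. In the authors' table MAP3K8 was 1.39, MAP3K5 1.06, MAP2K6 -0.81 and MAP3K14 -0.64, with the calls kept, and with effects per title line MAP3K14 did not pass (adjusted p = 0.0643 from limma). Of 14 immediate early genes of other families, EGR2 (2.06, well above background on 8 arrays), IER3 (1.80) and MYC (0.94) rose and EGR1 (-1.84) and BTG2 (-1.18) fell, with a median of 0.25. EGR2 was 0.79 with normexp and 0.81 in the authors' table and did not pass (adjusted p = 0.0875 and 0.0877 from limma). In the authors' table MAPK10 (-0.39) and EGR1 (-1.004) did not pass either (adjusted p = 0.0511 each from limma), and with normexp MAPK10 was -0.41 and EGR1 -1.04. With effects per title line EGR2, IER3, MYC and BTG2 did not pass (adjusted p between 0.0583 and 0.0829 from limma), nor did they with no filter (between 0.0576 and 0.0722).

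Of 12 acute-phase and related C/EBP targets tested, 8 passed as higher with IL-1β and 0 as lower. Because 4 of the 8 were measured on 0 of 4 control arrays, neither this count nor the median is read as a result about the list. The median log2 fold change was 5.50, against 2.25 with normexp, 1.96 in the authors' table and 4.76 with the genes that 1 treatment did not measure at their bound (5 genes, with 1 measured on neither side left out). Named by the rule were the growth factor gene CSF3 (at least 27.1-fold), the lipocalin gene LCN2 (log2 fold change 7.13, 2 of 4 controls measured, against 4.89 with normexp and 4.40 in the authors' table), IL6 (6.96) and TNFAIP6 (at least 26.6-fold). CSF3, TNFAIP6 and the collagenase gene MMP1 were well above background on 0 of 4 control arrays and passed the filter only through IL-1β arrays, which could keep them only as higher. With effects per title line LCN2 (0.0958) and MMP1 (0.0630) did not pass, nor with no filter (0.114 and 0.0755, adjusted p from limma). Of 13 AP-1 targets, CXCL8 (7.03, 3 of 4 controls measured, 5.94 with normexp and 5.44 in the authors' table) and CCL2 (5.84, 2 of 4 controls measured) rose and 0 fell. MMP1 also passed as higher (at least 10.99-fold) but is not counted, since it was kept only through IL-1β arrays. The list median was 0.37, against 0.0835 with the filter on all 12 arrays and 0.73 with outlier spots kept. CCL2 was 4.18 with normexp, where it did not pass (adjusted p = 0.0577 from limma), and 4.32 in the authors' table (0.0411). Of 13 NF-κB targets taken as a check of the ligand, 9 rose and 0 fell, among them CCL20 (10.61, 2 of 4 controls measured, against 9.45 with a floor of 5 units, 7.09 with normexp and 6.69 in the authors' table), CXCL2 (7.60), CXCL1 (6.25) and CXCL5 (4.45), with a median of 3.70. LRP2 (-2.43, or -1.36 in the authors' table), CDH6 (-1.87, 2 of 4 IL-1β arrays measured, -1.16 with normexp and -1.08 in the authors' table) and EPCAM (-0.97, adjusted p = 0.0663 from limma with effects per title line) were the markers of proximal tubule and epithelium that fell with IL-1β. SLC34A1 also passed as lower (-1.25, adjusted p = 0.00593 but 0.189 with normexp and 0.147 in the authors' table, from limma). It was well above background on 2 of 4 control and 1 of 4 IL-1β arrays. Its probe passed the filter only through control arrays, which could keep it only as lower, so it is not counted. For endothelium, leukocytes and fibroblasts 0 markers passed in either direction in limma (CDH5 0.12, CD68 1.05 (0.60 in the authors' table), CD79A -0.40 and DCN 0.81 (0.21 with normexp) with IL-1β, adjusted p between 0.289 and 0.760, with COL3A1 measured on 0 of 4 control and 0 of 4 IL-1β arrays). Of the named genes of these lists and markers, DBP, HLF, MAP3K8, MAPK10, CSF3, IL6, TNFAIP6, CXCL8, CCL2, CCL20, CXCL2, CXCL1, CXCL5, LRP2 and CDH6 passed with any 1 array or slide left out, and the others did not pass in at least 1 of these fits.

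**Figure D4:**
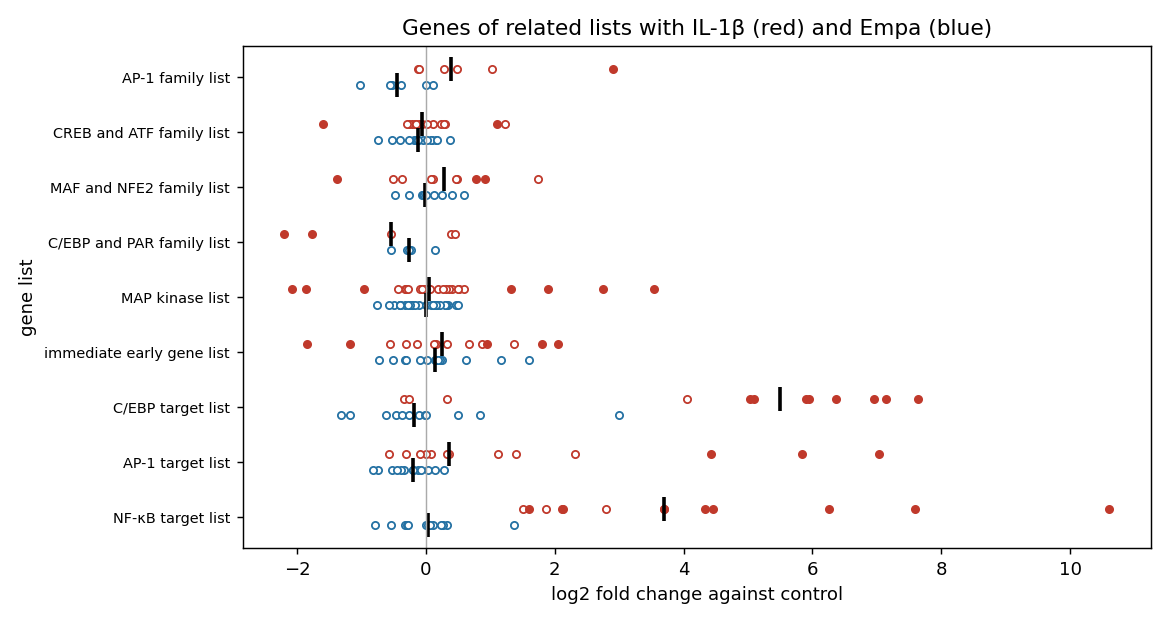
Log2 fold change of each tested gene of 9 lists with IL-1β (red) and Empa (blue); filled points passed an adjusted p of 0.05 in limma, and black marks are list medians. The medians with IL-1β are 5.50 for C/EBP targets (2.25 with normexp and 1.96 in the authors' table) and 3.70 for NF-κB targets. Among the C/EBP targets, 6 were measured on 0 of 4 control arrays. No Empa point is filled.

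With Empa 0 genes of any of these lists passed in limma, and the list medians lay between -0.45 (AP-1 family) and 0.14 (immediate early genes), next to -0.02 over all genes. The AP-1 family median was -0.15 with normexp, -0.15 in the authors' table, -0.00355 with the filter on all 12 arrays and -0.15 without the Empa array of HK-2 1. That of the C/EBP targets was -0.18, but from -0.49 (filter on all 12 arrays) to -0.00502 (normexp) under other processing, and from -0.68 without the Empa array of RPTEC 1 to 0.19 without that of HK-2 1, so it has no settled sign. The NF-κB target median of 0.03 went from -0.32 without the Empa array of RPTEC 1 to 0.35 without that of RPTEC 2. The MAP kinase median of 0.00664 went from -0.12 without the control of HK-2 1 to 0.098 without the slide HK-2 1. These medians have no settled sign either. The genes with the lowest unadjusted p of each list follow with their log2 fold changes. In the families these were BATF2 (-1.03) and FOSB (-0.52), CREB3L1 (-0.53) and DDIT3 (-0.75), NFE2L3 (0.41) and BACH1 (0.25), and HLF (-0.54) and DBP (-0.29). In the pathway and early gene lists they were MAPK10 (-0.56), EGR2 (1.60) and EGR1 (1.17), with EGR2 and EGR1 above control on 4 of 4 slides with Empa while EGR1 was below it with IL-1β. With normexp BATF2 was -0.25, FOSB -0.13, MAPK10 -0.13 and EGR2 0.22, so the sizes for these dim genes depend on the treatment of low signals. In the authors' table DDIT3 was -0.39, BACH1 0.0946, HLF -0.35, EGR1 0.75, CXCL1 -0.45 and CD68 -0.43. Among targets they were CRP and ORM2, both measured on 0 of 4 controls and on 3 (CRP) and 1 (ORM2) of 4 Empa arrays, with CRP past the filter only through Empa arrays, VEGFA (-0.45) and CCND1 (-0.39), and TNIP1 (-0.27) and CXCL1 (-0.78). Among markers GGT1 (-0.67), LRP2 (-0.57), CDH6 (-0.86, or -0.54 with normexp) and KRT8 (-0.43) were lower on 4 of 4 slides with Empa, and for the other cell types CDH5 (-0.17), CD68 (-1.03), CD79A (-0.17), DCN (-1.20, or -0.45 with normexp) and COL3A1 (measured on 2 arrays) had the lowest p, with an unadjusted p of 0.0282 for DCN. The adjusted p of these genes from limma were between 0.219 and 0.828.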

How the data were processed

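RNA of the 12 cultures was hybridized to one-color Agilent arrays, and groups and replicate numbers were taken from the sample titles. The intensities are, per the file headers, background-subtracted signals read with Feature Extraction 9.5.3.1, with probe positions on hg19, deposited array by array with no scaling across them. A table of normalized log2 values made by the authors served as an alternative.

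Outlier spots were left out, spots of a probe were averaged, signals were scaled to the 75th percentile of each array (from 295 up to 735), raised to at least 1 unit and put on the log2 scale. The scaled signal is given at the common percentile of 409 units. From 52.7% to 63.1% of probes were well above background on an array, 0 member probes were saturated, and the number of arrays limits the precision. A probe was kept if both arrays of some group measured it well above background, and the brightest kept probe stood for its gene. The model was fitted over 12 arrays in R 4.3.3 (limma 3.58.1) with the slide as a term and 1 effect per treatment, with Benjamini-Hochberg adjustment at 0.05. Line differences used effects per title line, and the control arrays 6 groups without a block. The pairing comes from the shared slide. Deviations of arrays from their group means correlated within a slide with r between 0.592 and 0.906, which also carries the difference between slides that each title mixes and so is no separate check of the pairing. The 4 slides were scanned on 2 days, and the slide term covers the day. The procedure was tested on simulated data.

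Named were all 10 members with all probes, up to 4 genes of each list past the threshold with IL-1β or Empa in each direction by size or, where none passed, the 2 with the lowest p, and the 2 genes most like each member. Some genes that this rule or the marker lists name are not reported here. Members and lists were chosen with earlier results of these data known. Alternatives were no replicate block (6 groups), effects per title line, quantile normalization, normexp (offset 50) and then quantile normalization, the authors' log2 table, no filter, a filter on all 12 arrays, a floor of 5 units, outlier spots kept, the unpaired test the methods state for PCR and ELISA, each array or slide left out, and other probes. A filter without line labels (well above background on at least 2 of the 4 arrays of a treatment) and a fit over 3 treatments with no replicate block were chosen after seeing the data. Promoters came from RefSeq (GRCh38.p14). Figures were drawn with matplotlib 3.10.9.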

Additional observations from a re-analysis of the deposited data

How the results depend on the processing

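With no replicate block and 6 groups of titled line and treatment, limma called 7 genes with IL-1β, 0 with Empa and 19 between IL-1β and Empa, with no replicate block and 3 treatments (chosen after seeing the data) 200, 0 and 229, and with the replicate block and effects per title line 855, 0 and 927, against 1961, 1 and 2269 with the slide as a term and 1 effect per treatment. The members called with IL-1β were 0 in either fit with no replicate block and 1 with effects per title line, against 4. Counts of members called in this section include FOS wherever its adjusted p was under the threshold, although it is not counted in the Results above. In every fit of this section that called 1 member with IL-1β, that member was FOS, and CEBPB, FOSL1 and FOSL2 did not pass there. The methods' t-test, after Benjamini-Hochberg adjustment, called 42, 2 and 13 genes and 0 members with IL-1β. With Empa 0 genes passed with normexp, the authors' table, the filter on all 12 arrays, no filter or a floor of 5 units. Without a filter on dim probes 2 members passed with IL-1β, FOS and FOSL2, and 5 genes differed between the control arrays of the titled lines. A filter without line labels, chosen after seeing the data, kept 17239 genes for limma, with 698 calls up and 1182 down for IL-1β, 1 for Empa, 789 up and 1375 down for IL-1β against Empa, and 4 members called with IL-1β. Leaving out each array or slide in turn gave 448 to 2943 genes with IL-1β, 0 to 1 with Empa and 434 to 2857 between IL-1β and Empa, and 1 to 6 members with IL-1β. The lowest counts came without the slide RPTEC 2 and the highest without the Empa array of HK-2 1 (IL-1β) or the IL-1β array of HK-2 2 (IL-1β against Empa). Normexp split the IL-1β calls into 915 higher and 971 lower, against 744 and 1217. In the authors' table the median over all genes between the control arrays of the titled lines was -0.67, against -0.09. Members passed with Empa under 0 alternatives in limma, where FOSL2 alone had an unadjusted p under 0.05, and line differences in effect were 0 throughout. On the log2 scale, ATF3 with Empa turned to 0.31 with outlier spots kept, 0.12 for A_23_P34915, 0.12 for A_24_P33895 and 0.21 for A_33_P3214105. ATF3 with IL-1β turned to 1.26 with outlier spots kept, 1.27 for A_23_P34915 and 1.59 for A_24_P33895. ATF3 between IL-1β and Empa turned to 0.0465 with quantile normalization, 0.0639 in the authors' table, 0.95 with outlier spots kept, 1.16 for A_23_P34915 and 1.47 for A_24_P33895. CEBPA between IL-1β and Empa turned to -0.00316 with normexp and -0.11 in the authors' table, JUNB with Empa to 0.00248 and 0.0464, and CRP with Empa to -0.0577 without a filter. With arrays or slides left out, ATF3 ranged from -0.29 to 0.10 with Empa, -0.39 to 0.10 with IL-1β and -0.22 to 0.13 between them. JUNB (-0.60 to 0.22), CEBPB (-0.46 to 0.10) and CD79A (-0.51 to 0.0199) with Empa, CEBPD (-0.40 to 0.15) and CDH5 (-0.0145 to 0.39) with IL-1β, and JUN (-0.00116 to 0.39) and CEBPA (-0.58 to 0.63) between IL-1β and Empa also changed sign. Where an array was left out, the lone array of its line was assumed to vary like the others. For members, alternatives other than leaving out arrays kept the direction and side of the threshold in 304 of their values, lost a call in 33, gained 1 in 4 and turned the sign in 16. Contrasts of the titled lines cannot compare the kinds of slide that controls and markers set apart, since each title holds both. Signals near background limit FOS, JUNB, FOSL1 and CEBPA. The causes were not tested.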

Other observations

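The probes of CEBPB and MAFF are each printed 10 times on an array, so their readings have a technical error of their own. Over the spots kept (7 to 10 for CEBPB and 10 for MAFF), the coefficient of variation within an array had a median of 3.73% for CEBPB, between 2.40% and 10.5%, and of 5.31% for MAFF, between 2.94% and 20.2%. The other 8 members have 1 spot per probe and no such estimate.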
